A study of Mus musculus with 24 samples.

Results

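The genes described here encode 9 mouse proteins built around small cysteine-rich folds that block proteases: the WAP (whey acidic protein) genes Wfdc17, Wfdc18, Wfdc1, Wfdc2 and Slpi, the Kunitz genes Spint1, Spint2 and Spint4, and the Kazal gene Spink8. They were chosen by symbol, with the array intensities in mutant and wild-type pituitaries already known. All 9 were found on the array, on 13 of its 45281 probes. Of these genes, 8 had a probe above background on at least 6 of the 24 arrays and entered the fit over 12027 genes; Slpi did not. The arrays measured pituitary RNA of mice aged 8 weeks, of a mixed C57Bl6j 129S2SvPas strain and with no treatment named. There were 4 groups of 6 animals, 1 array per animal: males lacking Cga (mutants), females lacking Cga, and littermate wild types of either sex. Cga encodes the alpha subunit shared by thyrotropin and the gonadotropins, and the labels give neither the allele nor which animals shared a litter. The p-values therefore rest on the spread between the 6 animals of a group.

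Inhibitors of these 3 families offer a loop to the active site of a protease, which binds it tightly and is blocked. The Kunitz proteins HAI-1 and HAI-2, made from Spint1 and Spint2, sit in the membrane of epithelial cells, where they hold back matriptase and the activators of hepatocyte growth factor. WAP proteins such as SLPI are secreted by glands and by white blood cells and protect tissue from neutrophil elastase. Some members of these families have no proven protease target. The pituitary itself is a gland of secretory epithelial cells, with macrophages and other cells of the connective tissue and vessels among them.

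Wfdc17 and Wfdc18 are neighbouring genes on chromosome 11, and theirs were the largest increases of all genes in the mutants, so the stretches of their promoters that align are shown first. RefSeq windows of GRCm38.p6, from 250 bases before to 50 after the gene start (base 251 of the window), were given for 7 of the 9 genes, in 8 windows. The best local alignment of the Wfdc17 and Wfdc18 windows (match 1, mismatch -1, gap opening -3, extension -1) had a score of 48 and 143 identical bases in 226 columns, which is 63.3%. The other 20 pairs of these genes scored 8 to 17. Capitals mark the identical bases. Both stretches lie on the plus strand, at chr11:83703816-83704027 for Wfdc17 and chr11:83708833-83709053 for Wfdc18. That of Wfdc17 covers window bases 11 to 222, all before the gene start. That of Wfdc18 covers bases 80 to 300 and runs past its gene start, so the aligned bases lie at different distances from the 2 starts.
Wfdc17: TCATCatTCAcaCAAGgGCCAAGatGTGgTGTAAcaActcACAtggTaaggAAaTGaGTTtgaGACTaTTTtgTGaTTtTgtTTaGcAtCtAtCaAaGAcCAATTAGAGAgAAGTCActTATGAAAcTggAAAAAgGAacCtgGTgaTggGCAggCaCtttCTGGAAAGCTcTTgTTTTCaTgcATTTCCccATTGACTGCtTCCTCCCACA
Wfdc18: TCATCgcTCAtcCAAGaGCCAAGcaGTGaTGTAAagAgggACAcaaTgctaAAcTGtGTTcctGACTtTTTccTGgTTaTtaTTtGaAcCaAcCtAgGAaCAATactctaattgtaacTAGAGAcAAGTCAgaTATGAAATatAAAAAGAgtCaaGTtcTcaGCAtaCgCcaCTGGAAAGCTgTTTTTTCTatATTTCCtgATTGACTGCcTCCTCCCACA
Spint4, the gene with the next largest difference among the 9, lies on chromosome 2, and its window at chr2:164698251-164698550 (plus strand) is shown whole, with matches to 3 of the motifs searched in capitals.
Spint4: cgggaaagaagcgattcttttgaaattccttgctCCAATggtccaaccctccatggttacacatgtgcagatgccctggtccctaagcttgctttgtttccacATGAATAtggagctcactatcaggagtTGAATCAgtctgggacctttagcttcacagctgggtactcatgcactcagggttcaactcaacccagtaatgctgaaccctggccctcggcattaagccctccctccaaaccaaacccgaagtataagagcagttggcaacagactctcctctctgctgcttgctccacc

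The 9 motifs were searched on both strands of these windows. They were TATAAA (the box near many gene starts), AGATAA (bound by GATA factors) and TATNCAT (the core bound by the pituitary factor Pit-1). Also searched were TGACGTCA (cyclic AMP response), TGANTCA (bound by AP-1), TGATGCAA (bound by ATF4 with CHOP) and GAGGAAGT (bound by PU.1). The last were CCAAT and 1 exact form, 10 bases long, of the NF-kB motif, so other forms of that motif were not searched. Each match was read as letters in a window and not as a bound site. Wfdc17 held TATAAA at bases 248 to 253 and CCAAT at 110 to 114. Wfdc18 held TATAAA at bases 220 to 225 and the reverse strand of TATNCAT at 68 to 74. Spint4 held CCAAT at bases 35 to 39, the reverse strand of TATNCAT at 104 to 110 and TGANTCA at 131 to 137. Spint1 held TGANTCA at 245 to 251 and CCAAT at 288 to 292. Among all 32544 mouse promoter windows of that length, 13.6% held TATAAA, 8.74% TATNCAT, 7.79% TGANTCA and 37.4% CCAAT. The others were held by 11.2% (AGATAA), 1.8% (TGACGTCA), 0.867% (TGATGCAA), 3.11% (GAGGAAGT) and 0.157% (NF-kB), and none of these 5 was found in the 8 windows. The windows of Wfdc2, Slpi and Spint2 held none of the 9.

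On the arrays as a whole, 39.7% to 46.4% of probes were above background in wild types and 47.1% to 50.8% in mutants. The share was thus higher on every mutant array than on any wild-type array, and lowest in wild-type males. Levels below are log2 intensities after background correction and quantile normalization, as mean ± SD over 6 arrays. The dimmest detected probe of an array lay at 5.11 to 5.28 on mutant arrays, and in the wild types at 5.52 to 5.79 (males) and 5.32 to 5.46 (females), so a level near 5 is close to background. The 7 pituitary hormone genes were above background on all 24 arrays. Cga itself was lower in mutants by -2.36 in males and -2.10 in females (limma adjusted p = 3.8e-16 and 4.0e-15); no source used here says if the deletion covers its probe. A difference between groups is given on the log2 scale ± its standard error. Where a probe was not above background on any array of the dimmer group, the fold is given as "at least": the mean of the brighter group over a mean that takes, on each dim array, the higher of the probe's own signal and the lowest signal of any detected probe. In whole glands, fewer cells of a type and less RNA per cell cannot be told apart.

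**Figure D1:**
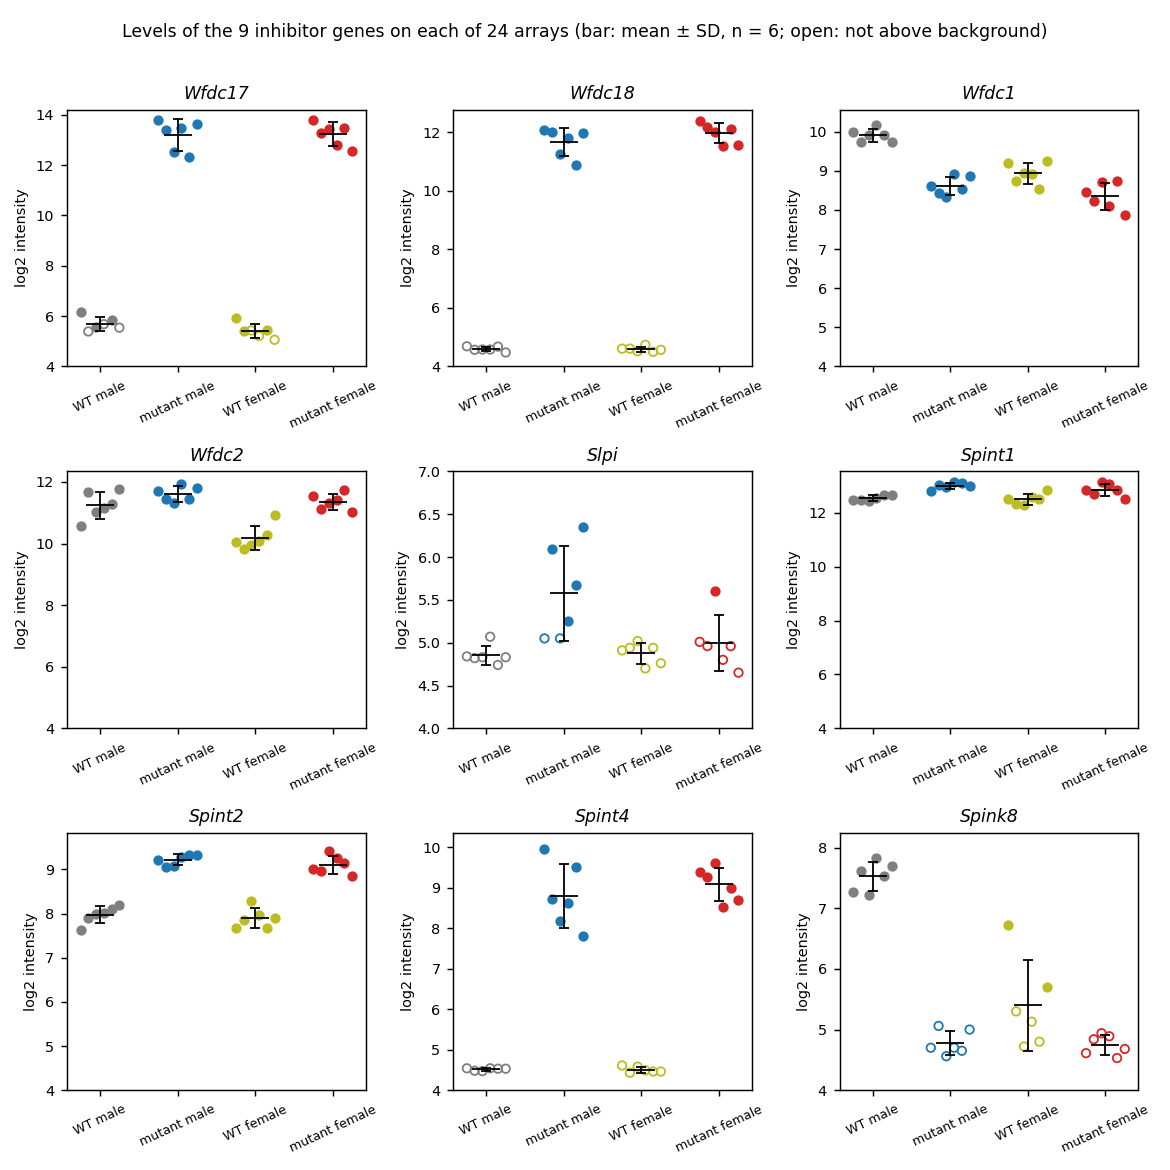
Log2 intensity of the 9 inhibitor genes on each of the 24 arrays, by group; 1 point is 1 array, open points were not above background, bars are the mean ± SD of 6 arrays, and each panel has its own vertical scale. Wfdc17, Wfdc18 and Spint4 were high on all 12 mutant arrays, Spink8 was above background on the 6 wild-type male arrays and on 2 wild-type female arrays, and Slpi on 5 mutant arrays.

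Wfdc17, Wfdc18 and Spint4 were near or below background in wild types and bright on all 12 mutant arrays. Spint2, Spint1 and Wfdc2 had mean levels 1.27-fold to 2.36-fold higher in mutants, but the genotypes overlapped for Wfdc2 in males and Spint1 in females. For Wfdc2 in males the 95% interval of the log2 difference was -0.02 to 0.74. Wfdc1 and Spink8 were lower in mutants, more so in males, and Slpi stayed close to background. These mutant and wild-type values are descriptions with no test, because the genes were chosen on them.

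Among the WAP genes, Wfdc17 encodes a secreted WAP protein made by activated macrophages and microglia. In wild-type males it ranged from 5.39 to 6.16 (median 5.62), and in wild-type females from 5.06 to 5.92 (median 5.42), above background on 3 of 6 arrays in each. In mutant males the 6 arrays measured 13.80, 13.38, 12.51, 13.48, 12.31 and 13.64. In mutant females they measured 13.79, 13.29, 13.45, 12.80, 13.48 and 12.56. The lowest mutant array was thus far above the highest wild-type array, and the mutant arrays of both sexes covered nearly the same range. The difference was 7.49 ± 0.23 in males and 7.82 ± 0.23 in females, 180-fold and 225-fold, or 170-fold and 211-fold with dim signals raised to the lowest detected one. By size of increase it ranked 1 of 12027 genes in both sexes.

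Wfdc18 encodes a related secreted protein known from the mammary gland, where it goes with the regression of milk-producing tissue. It was below background on all 12 wild-type arrays (4.48 to 4.69 in males, 4.50 to 4.74 in females). Mutant males measured 10.88 to 12.07 with a median of 11.90, and mutant females 11.54 to 12.38 with a median of 12.07. The groups were far apart, and the mutant levels of the sexes overlapped. Mutant minus wild type came to 7.08 ± 0.16 in males, at least 66.0-fold, and 7.38 ± 0.16 in females, at least 95.5-fold; it ranked 2 by size of increase in both sexes. Without background correction these differences were smaller, 4.99 and 5.29, with those of Wfdc17 at 5.98 and 6.13.

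Wfdc2 encodes a secreted WAP protein of epithelia, first known from the epididymis. It was above background on all 24 arrays. Wild-type males measured 10.58 to 11.78 (median 11.21) and wild-type females 9.81 to 10.93 (median 10.08). Mutant males measured 11.31 to 11.94 (median 11.58) and mutant females 11.03 to 11.73 (median 11.37). Wild-type females were the low group, and the other 3 groups overlapped one another. The difference was 0.36 ± 0.18 in males and 1.17 ± 0.18 in females, 2.25-fold in the latter.

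Wfdc1 encodes ps20, a WAP protein known from prostate stroma that slows cell growth. It was lower in mutants. Wild-type males measured 9.73 to 10.16 (median 9.90) and mutant males 8.32 to 8.91 (median 8.57), with no overlap. Wild-type females measured 8.54 to 9.26 (median 8.92) and mutant females 7.86 to 8.75 (median 8.34), and these overlapped. Wild-type males were the only group that no other group reached; wild-type females and mutant males overlapped, as did the mutant sexes. The difference was -1.29 ± 0.14 in males, 2.45-fold lower, and -0.58 ± 0.14 in females, 1.5-fold lower. Wfdc1 had 3 probes, all above background on every array; the other 2 gave -1.53 and -1.57 in males and -0.83 and -0.86 in females.

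Slpi encodes the secretory leukocyte protease inhibitor, which blocks neutrophil elastase and cathepsin G. Its probe was above background on 5 of 24 arrays, 4 of mutant males and 1 of a mutant female, and on 0 of 12 wild-type arrays. Mutant males measured 5.05, 6.10, 5.05, 5.25, 5.67 and 6.35, and mutant females 4.65 to 5.60 with a median of 4.96. Wild-type males measured 4.74 to 5.07 and wild-type females 4.70 to 5.02. The gene was near background throughout, and the mutant males were scattered. A larger share of all probes was above background on mutant arrays.

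Of the Kunitz genes, Spint4 encodes a small secreted protein for which no protease target is given here. It was below background on all 12 wild-type arrays (4.47 to 4.54 in males, 4.43 to 4.61 in females). The 6 mutant males measured 9.95, 8.72, 8.18, 8.63, 9.51 and 7.81. Mutant females measured 8.53 to 9.62 with a median of 9.14, inside the range of the males. The gene was thus above background on all 12 mutant arrays, with the widest scatter among mutant males (SD 0.80, against 0.42 in mutant females). The difference was 4.28 ± 0.24 in males, at least 8.99-fold, and 4.58 ± 0.24 in females, at least 12.9-fold. It ranked 12 and 11 by size of increase, and without background correction it was 2.46 and 2.70.

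Spint2, the gene of the matriptase inhibitor HAI-2, was higher in the mutants of both sexes by its brighter probe. Wild-type males measured 7.64 to 8.20 (median 8.01) and mutant males 9.06 to 9.33 (median 9.25). Wild-type females measured 7.67 to 8.29 (median 7.88) and mutant females 8.85 to 9.42 (median 9.07). The genotypes did not overlap and the sexes did. The difference was 1.24 ± 0.11 in males and 1.21 ± 0.11 in females, 2.36-fold and 2.31-fold. A second probe of Spint2 was not above background on any of the 24 arrays.

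Spint1, the gene of HAI-1, differed least of the Kunitz genes. Wild-type males measured 12.45 to 12.68 (median 12.51) and mutant males 12.83 to 13.14 (median 13.01), with no overlap. Wild-type females measured 12.29 to 12.85 (median 12.50) and mutant females 12.53 to 13.14 (median 12.84), with overlap. The difference was 0.46 ± 0.10 in males and 0.34 ± 0.10 in females, 1.38-fold and 1.27-fold. Its dimmer probe gave larger differences, 0.85 and 0.77. Scaling arrays to their 75th percentile gave 0.71 in males. In females the difference was 0.52 within the 12 arrays of lower raw background and 0.16 within the 12 of higher raw background; in males these gave 0.47 and 0.46.

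Spink8 encodes a Kazal-type inhibitor. It was above background on all 6 wild-type male arrays, at 7.27, 7.61, 7.22, 7.84, 7.53 and 7.70, with raw intensities of 218 to 335. The wild-type females measured 6.73, 5.30, 4.72, 5.13, 4.80 and 5.71, of which the first and the last were above background. All 12 mutant arrays were below background, at 4.56 to 5.06 in males and 4.53 to 4.94 in females. Wild-type males stood above every other array, and 1 wild-type female came nearest. The difference was -2.75 ± 0.22 in males, at least 4.93-fold lower, and -0.65 ± 0.22 in females, at least 1.15-fold lower. Without background correction it was -1.30 and -0.29, and in the authors' processed table -1.44 and -0.33. By size of decrease it ranked 28 of 12027 genes in males and 913 in females.

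**Figure D2:**
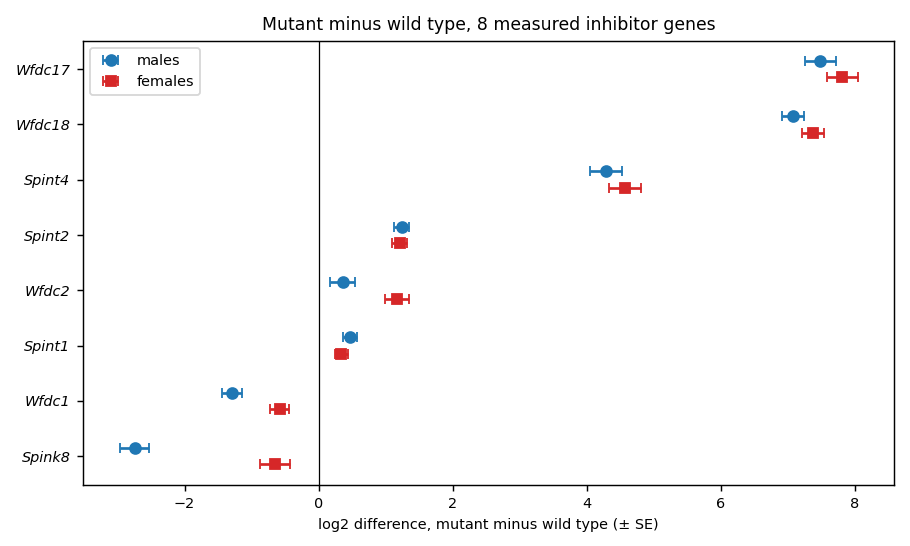
Log2 difference, mutant minus wild type, of the 8 measured genes in males (circles) and females (squares); bars are ± 1 standard error of the 4-group model, 6 arrays per group. Wfdc17 and Wfdc18 lie above 7, Spint4 above 4, and Wfdc1 and Spink8 lie to the left of 0, further in males.

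In males, mutant and wild-type arrays did not overlap for 7 of the 8 genes, all but Wfdc2; over all 12027 genes the share was 30.7%. In females they did not overlap for 5 of the 8, namely Wfdc17, Wfdc18, Wfdc2, Spint2 and Spint4; over all genes it was 23.6%. Nothing is read from these counts, since the genes were chosen on this contrast.

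Markers of macrophages and microglia were higher in the mutants, in which Wfdc17 and Wfdc18 were high. All 13 such genes measured, among them Aif1, Csf1r and C1qb, rose in both sexes, with a median of 1.31 in males and 0.91 in females. Their summed linear intensity in wild types was 2038 to 2946 (males) and 2177 to 3246 (females), and in mutants 4709 to 8098 (males) and 4108 to 6288 (females). Of 11 markers of epithelium, 3 rose and 1 fell in males, and 2 rose and 3 fell in females. Their summed intensity in wild types was 3670 to 4331 (males) and 3535 to 6180 (females), and in mutants 3858 to 4941 (males) and 4216 to 4584 (females). Muc1, counted among the rises in males, was below background in wild-type males and passed the filter on dim probes only through the mutants. Of 10 markers of fibroblasts and pericytes, 2 rose and 3 fell in males, and 5 rose and 3 fell in females. Their summed intensity in wild types was 6009 to 8855 (males) and 4816 to 6050 (females), and in mutants 4555 to 6846 (males) and 5292 to 6843 (females). Of 7 markers of thyrotropes, 5 rose and 2 fell in males, and 5 rose and 1 fell in females. Cga, the gene the mutants lack, is among them and fell in both sexes. Their summed intensity in wild types was 48006 to 56905 (males) and 41153 to 51734 (females), and in mutants 44210 to 46670 (males) and 45266 to 51878 (females). Of 7 markers of folliculostellate and stem cells, 2 rose and 2 fell in males, and 1 rose and 3 fell in females. Over all genes 25% rose and 26.5% fell in males, and 22.8% rose and 25.5% fell in females. No change of a cell type is read from counts near those shares. The part of any of these cell types in the differences of the 9 genes was not tested.

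Sex differences were tested within each genotype by the same limma model, with Benjamini-Hochberg adjustment over all 12027 genes, for members above background on every array of both groups compared. These comparisons share arrays with the values on which the genes were chosen, so their p-values are not independent evidence. Among wild types 4 genes could be so tested, and 2 of them differed, both lower in females; over all genes 27.3% were called and 14.8% were lower in females. Wfdc2 was lower by -1.06 ± 0.18 (adjusted p = 0.00012), 2.08-fold. Wfdc1 was lower by -0.97 ± 0.14 (adjusted p = 1.7e-05), 1.96-fold, and its other 2 probes gave -1.02 and -1.04. The arrays of the 2 sexes did not overlap for Wfdc1; over all genes that was so for 11.1%. For Wfdc2 they overlapped, through 1 male at 10.58 and 1 female at 10.93. Within the 12 arrays of lower raw background, 3 per group, and the 12 of higher background, Wfdc2 gave -1.15 and -0.97 and Wfdc1 -0.92 and -1.03. Both were called in either part (largest limma adjusted p = 0.027). The parts come from the same arrays and were split after seeing the data, so they are no independent evidence.

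Spink8 passed the filter on dim probes through the wild-type males, so its difference between wild-type sexes is a description with no test. It was -2.13 ± 0.22, 4.37-fold lower in females, or 3.64-fold with dim signals raised to the lowest detected one, and -1.03 without background correction. Spint1 differed by -0.03 (95% interval -0.24 to 0.17; adjusted p = 0.84 by limma) and Spint2 by -0.08 (-0.31 to 0.14; adjusted p = 0.62). Wfdc17, above background on 3 of 6 arrays of either sex, differed by -0.28 and was not tested. Wfdc18 and Spint4 were below background in both sexes, and no fold is given for them.

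Among mutants, 0 of the 7 genes above background on all 12 arrays were called between the sexes (limma adjusted p of 0.81 to 0.98), and 0 had an unadjusted p under 0.05, the lowest being 0.080 for Wfdc1 and 0.081 for Wfdc18. Over all genes 0.0665% were called in that comparison. The intervals allow differences: Wfdc17 lay at 0.04 (95% interval -0.43 to 0.51), Wfdc18 at 0.30 (-0.04 to 0.63), Spint4 at 0.29 (-0.20 to 0.78), Wfdc1 at -0.26 (-0.56 to 0.03) and Wfdc2 at -0.25 (-0.63 to 0.13).

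**Figure D3:**
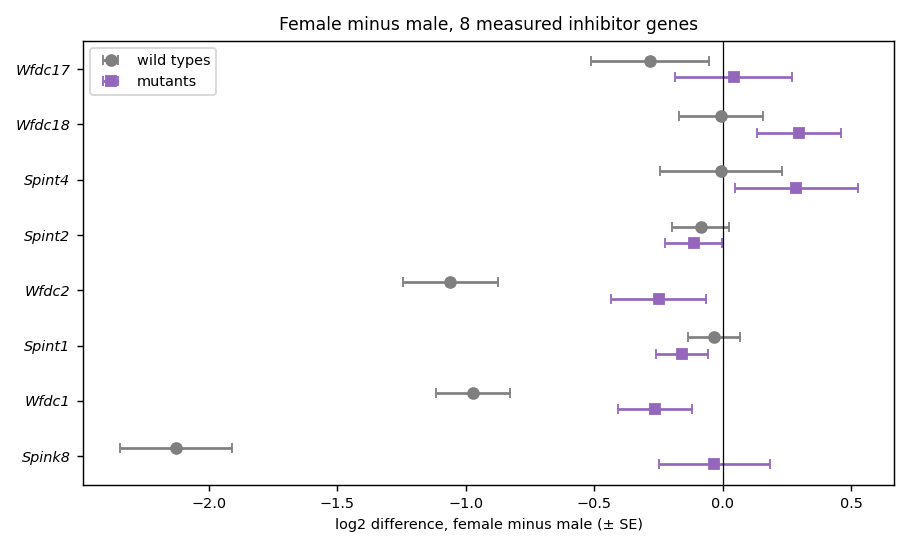
Log2 difference, female minus male, of the 8 measured genes in wild types (circles) and mutants (squares); bars are ± 1 standard error of the 4-group model. In wild types Spink8 (-2.13), Wfdc2 (-1.06) and Wfdc1 (-0.97) lie to the left, and in mutants the values run from -0.26 to 0.30.

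The mutant effect in females minus that in males is built from the contrasts on which the genes were chosen, so it is given with no test; over all genes 13.6% were called for it by limma. It came to 2.10 ± 0.31 for Spink8, 0.71 ± 0.20 for Wfdc1 and 0.81 ± 0.26 for Wfdc2. For Spink8 and Wfdc1 the mutant levels lay less far below those of the wild types in females, and for Wfdc2 they lay further above. Spink8 was above background on only 2 of 6 wild-type female arrays, so a larger fall in females could hardly have been measured. The 3 probes of Wfdc1 gave 0.71, 0.70 and 0.70. For Wfdc17 the value was 0.33 and for Spint4 0.29.

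For Spink8 it was 1.01 without background correction. Within the arrays of lower raw background it was 1.80 for Spink8, 0.93 for Wfdc1 and 0.99 for Wfdc2. Within those of higher background it was 2.39, 0.49 and 0.63.

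Some markers of neutrophils and of blood were also lower in wild-type females than in wild-type males. Of 4 neutrophil markers measured, Lcn2 was lower in females by -2.36 (limma adjusted p = 4.5e-06), and S100a8 and Ltf did not pass (adjusted p = 0.074 and 0.10). Camp, a defining marker, was above background on the 6 wild-type male arrays and on none of the other 18, so it passed the filter through that group and is given with no test. The summed intensity of the 4 was 1842 to 2493 in wild-type males but 325 to 652 in wild-type females, and in mutants it was 1070 to 9299 (males) and 1133 to 1988 (females). Lcn2 was the brightest of them in every group, with mean levels of 10.86 (males) and 8.50 (females) in wild types and of 11.41 and 10.53 in mutants. The 2 red blood cell genes measured were both lower in wild-type females. The part of these cells in the lower wild-type female levels of Spink8, Wfdc1 and Wfdc2 was not tested.

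The array-to-array scatter inside the groups was compared next, as deviations from group means over the groups in which a gene was above background on every array. These correlations describe arrays that share one normalization, and no p is given. Wfdc17 and Wfdc18 went together: over the 12 mutant arrays Pearson's r was 0.96 and Spearman's rho 0.83, and r was 0.93 without the 2 arrays farthest from the median. Of 10292 genes above background on those arrays, Wfdc18 had the highest Pearson's r with Wfdc17, followed by Clic1 (r = 0.92), a chloride channel protein, and Washc3 (r = 0.89). By other measures the order of these 3 changed: rho was 0.87 for Clic1 and 0.94 for Washc3, and r without the 2 farthest arrays was 0.94 for Clic1 and 0.80 for Washc3. For Wfdc18 the next were Tlr5 (r = 0.91), a receptor for bacterial flagellin, and Slc22a18 (r = 0.90). Spint4 had lower correlations with them, r = 0.22 with Wfdc17 and 0.13 with Wfdc18, or 0.45 and 0.42 without the 2 farthest arrays. The genes most alike to it were Gabrq, Tbc1d1 and Diaph3 (r = 0.90, 0.89 and 0.87). Picking the highest of 10292 genes over 12 arrays can give such values by itself, so no link is read from them.

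Wfdc17 had r of 0.67 with Wfdc2 and 0.66 with Wfdc1 over the same 12 arrays, and 0.05 with Spint1. Against the 13 macrophage markers the r of Wfdc17 ran from -0.33 to 0.70 with a median of 0.46. For Spint4 the median over the same markers was -0.05. Markers of folliculostellate and stem cells gave Wfdc17 a median r of 0.30 and a highest of 0.69. Those of fibroblasts and pericytes gave it a median of 0.20 and a highest of 0.69. Wfdc1, lower in mutants, had a median of 0.44 with 8 macrophage markers over all 24 arrays. A link of either gene to a cell type was not tested. Over all 24 arrays and 9165 genes, Spint1 was most alike to Aplp2, a membrane protein that itself carries a Kunitz domain (r = 0.88), then to Ank (0.88) and Chrd (0.86). The genes most alike to Spint2 were Klhdc2 (0.86), Map11 (0.82) and Vars (0.81), and to Wfdc1 Fam171a1 (0.87), Atp6v1h (0.77) and Fam160a2 (0.75). Those of Wfdc2 were Pon2, Eno3 and Smarca2, all at 0.76.

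**Figure D4:**
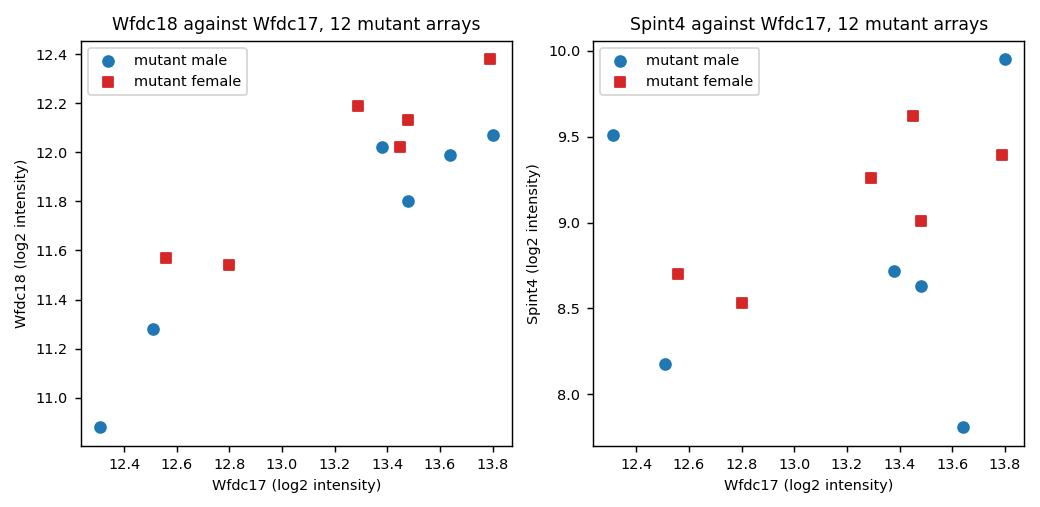
Log2 intensity of Wfdc18 (left) and Spint4 (right) against that of Wfdc17 on the 12 mutant arrays; circles are mutant males and squares mutant females. Wfdc18 climbs with Wfdc17 across its range of 12.31 to 13.80, while the Spint4 values of 7.81 to 9.95 scatter more widely about any such trend.

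The wider families were read from lists chosen with earlier results known. Of 53 other genes with a WAP, Kunitz or Kazal domain, 49 were on the array and 24 were above background often enough to be tested. In males 13 rose and 8 fell, and in females 13 rose and 6 fell. The median difference was 0.31 and 0.40, beside -0.01 and -0.03 over all genes, of which 25% rose and 26.5% fell in males and 22.8% and 25.5% in females. Only genes above background on all 24 arrays can be read free of that filter, and of 14 such genes 9 rose and 4 fell in males and 8 rose and 4 fell in females. Over all 9166 genes above background on all 24 arrays, 2007 rose and 2539 fell in males, and 1921 rose and 2435 fell in females.

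The Kazal gene Spink4, known from goblet cells of the gut, had the largest difference of that list. In wild-type males it was at 5.18 ± 0.26, below background on all 6 arrays. In mutant males it was at 8.92 ± 0.37, a log2 difference of 3.74 and at least 9.78-fold. In females the difference was 3.71, with 3 of 6 wild-type arrays above background. Smoc1, a calcium-binding matrix protein, rose by 1.83 and 0.94 in males and females, and Fstl5, a follistatin relative, by at least 2.27-fold in males, from below background, and by 1.64 in females. Spock1, a proteoglycan with a Kazal-like domain, rose by 1.01 in males and at least 3.48-fold in females. Reck, a membrane inhibitor of metalloproteases, fell by 1.81 and 1.23 on the log2 scale. Spint5, the gene next to Spint4 on chromosome 2, fell by 1.61 in males and at least 1.27-fold in females, while Spint4 was higher in mutants. Smoc1 and Reck, above background on all arrays, passed the limma test in both sexes. Spink4, Fstl5, Spock1 and Spint5 passed the filter on dim probes only through the brighter genotype, so no test is read for them.

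Of 27 serine proteases that such inhibitors bind, or relatives of them, 10 were tested. In males 2 rose and 4 fell, in females 3 rose and 4 fell, and the median was -0.10 and 0.06. Tmprss6, a membrane protease that governs hepcidin, was higher in mutants by 1.75 in males and 1.54 in females, at least 1.59-fold and 1.58-fold. Tmprss4 fell by 1.70 and 0.99 (limma adjusted p = 2.1e-12 and 5.4e-08), with 4 and 2 of 6 mutant arrays above background. Tmprss11a was lower in mutants by 1.35 and 0.97, at least 1.91-fold and 1.51-fold. Tmprss6 and Tmprss11a passed the filter on dim probes only through the brighter genotype, so no test is read for them. The counts above include them. Over all genes 25% rose and 26.5% fell in males, and 22.8% rose and 25.5% fell in females. St14, the gene of matriptase, differed by -0.04 in males (adjusted p = 0.83) and rose by 0.56 in females (adjusted p = 0.0039); the difference between the sexes did not pass (adjusted p = 0.063). Prss8, the gene of prostasin, rose by 0.51 in males (adjusted p = 0.0011) and differed by 0.07 in females (adjusted p = 0.68), again with no call for the difference (adjusted p = 0.084).

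Among 16 substrates and partners of these proteases, 11 were tested. In either sex 4 rose and 4 fell, with medians of -0.24 and -0.12. The shares over all genes were 25% that rose and 26.5% that fell in males, and 22.8% and 25.5% in females. Scnn1b, a subunit of the epithelial sodium channel, fell by 1.90 in males and 1.48 in females (limma adjusted p = 1.1e-09 and 1.0e-07), 3.74-fold and 2.78-fold. Scnn1g, another subunit, fell by 0.77 and 1.48 (adjusted p = 0.010 and 1.6e-05). Grn, whose product progranulin is bound by SLPI, rose by 0.60 and 0.33 (adjusted p = 8.5e-06 and 0.0055). Hgf, hepatocyte growth factor, was below background on all 12 wild-type arrays. It measured at least 1.08-fold higher in mutant males and at least 1.11-fold higher in mutant females. Hgf passed the filter on dim probes only through the mutants, so no test is read for it, though the counts of rises include it. Plscr1, a phospholipid scramblase, differed by -0.28 in males (adjusted p = 0.072) and fell by 0.77 in females (adjusted p = 1.9e-05).

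Of 26 serpins, cystatins and TIMPs, 13 were tested. In males 5 rose and 3 fell, and in females 5 rose and 4 fell, with medians of 0.20 and 0.16. Beside these counts, 25% of all genes rose and 26.5% fell in males, and 22.8% and 25.5% in females. Serpinb1a, an inhibitor of neutrophil proteases, was higher in mutants by 3.11 in males and 3.70 in females, 8.62-fold and at least 9.63-fold. It passed the filter on dim probes only through the mutants, so no test is read for it. The counts of rises include it and, in females, Timp4, which passed the filter in the same way. Timp1, an inhibitor of matrix metalloproteases, rose by 2.61 and 2.65 (limma adjusted p = 2.2e-13 and 1.9e-13), 6.11-fold and 6.26-fold. Serpini1, the gene of neuroserpin, rose by 1.39 and 0.90. Serpina3n rose by 1.69 in males (adjusted p = 0.041), with wide scatter among the mutants (9.19 ± 1.63), and differed by -0.17 in females (adjusted p = 0.86).

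Genes beside the members on the chromosome were read in RefSeq order, up to 5 protein-coding genes to either side, with no coordinates taken from that table. The regions of Wfdc17 with Wfdc18, of Spink8 and of Wfdc1 are described more fully, picked after their values were seen. On one side of the Wfdc17 and Wfdc18 pair lies a cluster of chemokines, signals that attract white blood cells. All 4 of those measured were higher in the mutants of both sexes. Ccl3 was higher at least 6.92-fold in males and by 3.83 in females, and Ccl9 at least 2.13-fold in males and by 1.48 in females. Ccl5 rose by 1.63 and 1.14, and Ccl4 by 1.51 and 0.82. Ccl5 and Ccl4 passed the limma test in both sexes, in which 25% (males) and 22.8% (females) of all genes rose. On the other side, Heatr6 was close to background and differed by 0.18 in males and 0.08 in females. Ccl3, Ccl9 and Heatr6 passed the filter on dim probes only through the mutants, so no test is read for them. Ddx52 differed by 0.01 in males (adjusted p = 0.95) and fell by 0.30 in females (adjusted p = 0.032). Ccl6 and Wfdc21 were not above background often enough to be tested.

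Beside Spink8, with 1 gene between that was not on the array, lies Camp, the gene of the antimicrobial peptide cathelicidin. Its wild-type male level was at least 1.95-fold that of mutant males and at least 1.73-fold that of wild-type females; in females it was below background in both genotypes. Both Spink8 and Camp were thus above background on all 6 wild-type male arrays and on none of the 12 mutant arrays. Next to Wfdc1, Kcng4, a potassium channel subunit, was lower in mutants by 1.94 in males and at least 1.61-fold in females. It passed the filter on dim probes only through the wild types, so no test is read for it. Cotl1, an actin-binding protein, fell by 1.26 and 0.55. Meak7, between Wfdc1 and Cotl1, differed by -0.11 in males (limma adjusted p = 0.43) and fell by 0.45 in females (adjusted p = 0.0023). In the other regions neighbours did not all move with the member. Yif1b, near Spint2, differed by -0.35 in males and -0.80 in females. Wfdc6a, near Wfdc2, differed by -0.95 and -0.42, and Wfdc10, near Spint4, by -0.56 and -0.23. Ppp1r14d (0.67 and 0.39) and Rhov (0.45 and 0.67), to either side of Spint1, were close to background in wild types. With dim signals raised to the lowest detected one, their mutant level was 0.994-fold and 0.996-fold that of wild types in males. In females it was 1.04-fold and 1.24-fold. Both passed the filter on dim probes only through the mutants, and Wfdc10 was above background on 10 of 24 arrays, so no test is read for them.

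**Figure D5:**
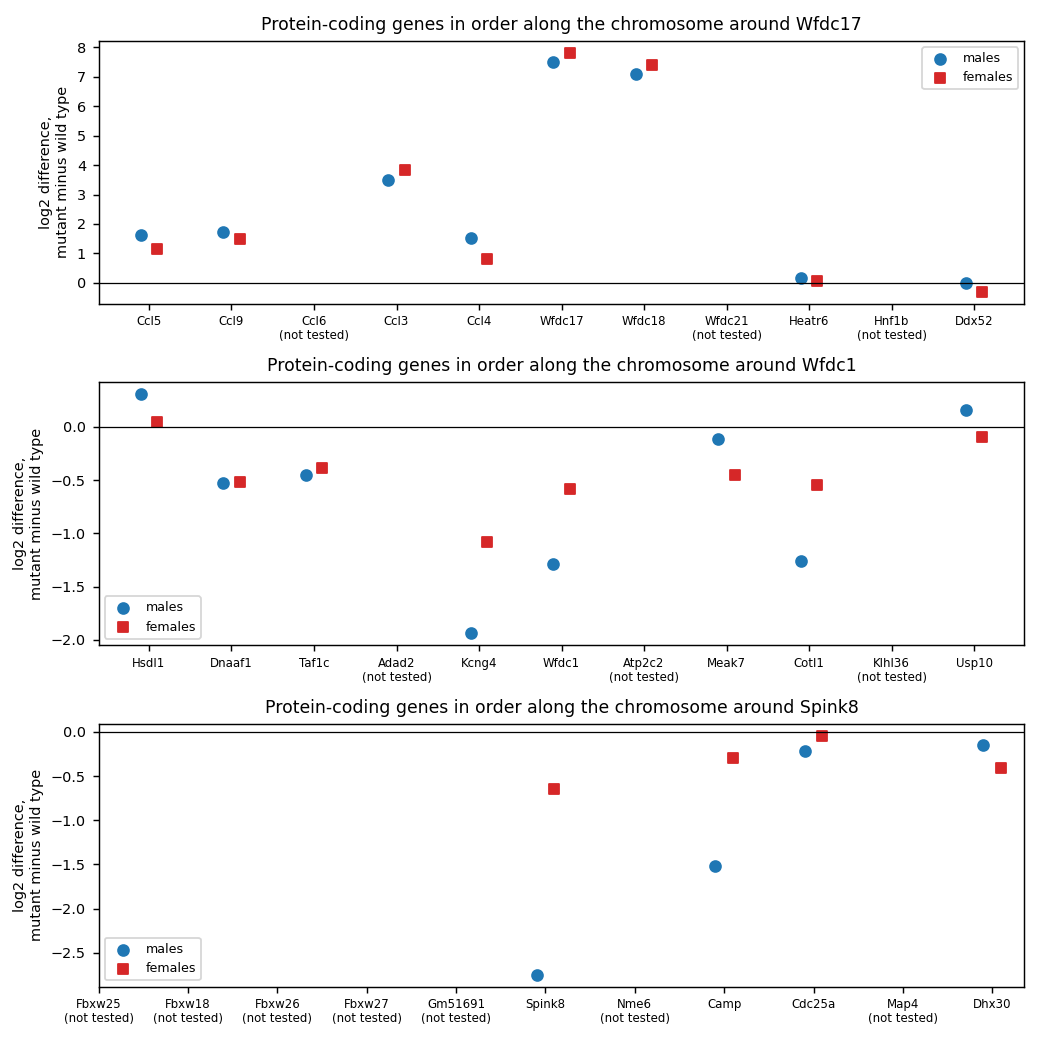
Log2 difference, mutant minus wild type, of Wfdc17, Wfdc1 and Spink8 and of up to 5 protein-coding genes to either side, in their order along the chromosome, in males (circles) and females (squares). The chemokine genes to the left of Wfdc17 and Wfdc18 lie above 0 and the genes to the right lie near 0; Camp lies below 0, as does Spink8, with female values of Camp that were below background in both genotypes.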

How the data were processed

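Pituitary RNA from 24 mice was hybridised to 24 Illumina arrays. Per the file headers, the deposited non-normalized table holds the mean bead intensity of 45281 probes on a linear scale, the detection p-value of each probe and the number of beads behind it (median 42 to 44 per array). Per the submitters' processing notes, GenomeStudio 2011.1 was used. A further 24 columns, the bead standard errors, were not used. The authors' processed intensity table keeps the ranks of the raw one (rank correlation at least 0.999999) and served as an alternative; how it was normalized is not stated by any source used here.

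The raw table went through limma's neqc (version 3.58.1, in R 4.3.3), which corrects background with negative controls inferred from the detection p-values, adds an offset of 16 and equalises quantiles. Probes with a detection p under 0.05 on at least 6 arrays were kept (23133). The platform annotation names 34885 probes with 1 gene symbol, 18 with several and 10378 with none; 34807 matched RefSeq. A gene was represented by its kept probe of highest mean, giving 12027 genes. A model with 1 mean per group and a shared spread (lmFit, eBayes) gave 5 comparisons, called at an adjusted p under 0.05 over all genes. Precision is limited by the number of arrays.

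The members and lists were chosen with earlier results of these data known. All 9 members are named, and from each list the 3 called genes with the largest difference in each genotype comparison; Reck, Spint5, St14, Prss8, Grn and the named neighbours and markers were singled out after their values were seen where that rule did not name them. Alternatives covered background correction, normalization, the filter, the probe rule, a floor, the groups fitted, the authors' table and leaving out each array. The split of the arrays by raw background (5th percentile of raw intensity, 72.8 to 84.1 against 85.1 to 95.4), which is also the split by order of the sample numbers in the titles, and the filter on all 24 arrays were added after seeing the data. Promoters were aligned with Biopython 1.88. The fit was tested on simulated data.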

Additional observations from a re-analysis of the deposited data

Results flagged for a closer look

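Slpi, which was left out of the tests because its probe was seldom above background, was above background on 5 of 12 mutant arrays and on 0 of 12 wild-type arrays. Its value on the array of wild-type male 4, 5.07, lay apart from the other wild-type males, the highest of which was at 4.84, but was itself not above background. It was the only one of 36 sets of 6 arrays, 9 genes in 4 groups, with a sample so far from its neighbours; chance gives about 1 in 20.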

How the results depend on the processing

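No paired analysis was possible because the labels give no replicate numbers that groups share. No slide is given in the headers, so the slide as a block was not run. The split by raw background is also that by order of the sample numbers in the titles, with 3 arrays of each group in either part; as a block it changed no call on the members, with 2 of 4 called among wild types and 0 of 7 among mutants. Of 2771 recomputed values, 0 reversed. A change of sign was counted there only for a called member difference, or for an untested one at least as large as the scatter inside groups. Smaller differences did change sign, such as that of Spint1 between the wild-type sexes (-0.09 to 0.19). Beyond leaving out single arrays, 31 counts of called genes and 60 other values moved past a set margin. Leaving out arrays moved 10 values. Within the arrays of lower and of higher raw background, 12 arrays each, all counts of called genes were smaller: 4014 and 4073 for mutant minus wild type in males (6197 with all arrays), 3611 and 3676 for mutant minus wild type in females (5808), 1409 and 979 for the wild-type sexes (3288), 4 and 3 for the mutant sexes (8), and 185 and 311 for the difference between the sexes (1637). Fewer arrays entered those fits. Between mutant sexes the count was also 3 without background correction, 1 with genes above background on all 24 arrays and 2 with only the groups compared. Leaving out single arrays gave 5799 to 6291 called genes in males, 5374 to 5845 in females, 2808 to 3380 for the wild-type sexes, 6 to 9 for the mutant sexes and 1331 to 1884 for the difference; of the members tested, 2 to 2 were called among wild types and 0 to 0 among mutants.

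With genes above background on all 24 arrays, the other WAP, Kunitz and Kazal genes gave 4 that fell in males and 8 that rose in females, the proteases 1 that rose and 0 that fell in males and 1 that fell in females, and the serpins, cystatins and TIMPs 3 that rose in females; fewer genes were tested. With a filter of 12 arrays, 2 proteases fell in males. With no filter, 5 serpins, cystatins and TIMPs fell in males. In the lower-background arrays, 2 substrates rose and 1 fell in males, 3 serpins, cystatins and TIMPs rose in males, and 3 other WAP, Kunitz and Kazal genes fell in females. In the higher-background arrays, 1 protease rose, 2 substrates fell and 1 serpin, cystatin or TIMP fell in males, and in females 2 proteases fell, 1 substrate rose and 3 serpins, cystatins and TIMPs rose.

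Dim signals limit the sizes. In the authors' table the differences in males and females were 6.16 and 6.31 for Wfdc17, 5.24 and 5.53 for Wfdc18 and 2.68 and 2.92 for Spint4, and -1.44 in males for Spink8. Spink8 was left out by the filters of 12 and of 24 arrays. Wfdc17, Wfdc18, Spint4 and Spink8 were left out by that of 24.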
